A study of Mus musculus with 8 samples.

Results

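Among the c-Jun ChIP-seq peaks of mouse epiblast stem cells (EpiSCs), the wide peaks were those of at least 500 bp, selected on width alone, the end minus the start of a peak in the deposited list. There were 838 of them among 16166 peaks (5.18%). The other 15328 peaks, called narrow below, served for comparison. The study also profiled kEpiSCs, which are EpiSCs carrying a Klf4 transgene under the CAG promoter and an Oct4-GFP reporter. By the study's methods its EpiSCs came from embryos of OG2 males, OG2 being that reporter, so the reporter is not particular to kEpiSCs. Both lines were grown as primed cells with Activin A and bFGF. For each of the 2 lines, ChIP was sequenced in 2 libraries and input in 2 more, but peaks came as 1 list a line, which may rest on the first library alone, so no value below has a replicate spread. The EpiSC ChIP libraries are labelled as strain CBA/CaJ X C57BL/6J, which is not the cross that the study's methods give for its EpiSCs. Which of them holds for these libraries was not settled here. The study's EpiSC line is the one it calls EpiSC B4. The antibody field names c-Jun while the protocol text names an H3K27ac antibody, H3K27ac being a histone mark whose peaks are usually broader than those of a transcription factor. The study's own ChIP methods name a rabbit antibody to c-Jun. The c-Jun label was used, though which antibody was added cannot be read from the peak list.

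c-Jun is a basic leucine zipper protein that binds DNA as a dimer with other Jun, Fos or ATF proteins, and these dimers are together called AP-1. Jun-Fos dimers bind the 7-letter site TGASTCA, in which S is C or G, whereas dimers with ATF or CREB proteins prefer TGACGTCA. In EpiSCs, which stand for the primed state of pluripotency, c-Jun is expressed, and most binding of AP-1 in other cell types lies at enhancers far from promoters. TGASTCA reads the same on both strands as a pattern, so each site was counted once.

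The printed sequences are of 3 kinds, all from the + strand of mm10 with each TGASTCA in capitals. The first are the stretches with most sites in wide peaks that held the most, since the number of sites is one of the measures compared. The one in intron 5 of Atxn1 and the one near Twsg1 are tandem arrays, and the one near Klf6 is not.
Atxn1 intron 5, chr13:45623882-45624180: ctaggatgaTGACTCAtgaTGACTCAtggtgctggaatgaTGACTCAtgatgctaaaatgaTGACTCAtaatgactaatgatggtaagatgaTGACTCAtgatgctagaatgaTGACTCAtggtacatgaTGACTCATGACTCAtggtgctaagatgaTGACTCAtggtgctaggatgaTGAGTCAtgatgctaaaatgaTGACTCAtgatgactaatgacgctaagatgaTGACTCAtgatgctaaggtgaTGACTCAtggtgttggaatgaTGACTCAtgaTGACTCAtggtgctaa
Twsg1, chr17:65961709-65962008: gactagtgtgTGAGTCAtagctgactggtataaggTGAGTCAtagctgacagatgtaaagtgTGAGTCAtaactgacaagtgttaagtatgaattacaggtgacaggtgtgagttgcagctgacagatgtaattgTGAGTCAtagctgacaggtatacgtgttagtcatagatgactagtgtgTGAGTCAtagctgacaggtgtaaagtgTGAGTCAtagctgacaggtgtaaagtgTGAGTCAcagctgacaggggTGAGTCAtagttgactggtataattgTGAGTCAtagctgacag
Klf6, chr13:5845251-5845290: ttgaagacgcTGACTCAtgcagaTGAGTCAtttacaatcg
The second are the 41 bp centred on the summit, the base with the highest pile-up, of the 5 wide peaks with the highest score. A site lies next to the summit in 4 of them.
Mdm2, chr10:117721599-117721639: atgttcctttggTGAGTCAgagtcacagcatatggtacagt
Slco2a1, chr9:102993942-102993982: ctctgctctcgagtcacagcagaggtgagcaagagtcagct
Lrrc74a, chr12:86787409-86787449: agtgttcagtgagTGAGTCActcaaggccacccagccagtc
Fmnl2, chr2:52955256-52955296: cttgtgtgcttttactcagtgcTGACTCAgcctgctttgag
Socs1, chr16:10754719-10754759: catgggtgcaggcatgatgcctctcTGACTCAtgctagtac
The last are the same windows of the 3 highest-scoring wide peaks with no TGASTCA anywhere in the peak. The Neo1 window is a repeat of units that hold cgagtca, a run the search did not count.
Neo1, chr9:58979210-58979250: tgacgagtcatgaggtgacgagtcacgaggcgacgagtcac
Ergic1, chr17:26584663-26584703: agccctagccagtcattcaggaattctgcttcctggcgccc
Dnah8, chr17:30656893-30656933: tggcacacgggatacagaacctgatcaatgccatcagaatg

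Wide peaks had a median width of 596 bp (quartiles 542 and 691, range 500 to 1770), against 182 bp for narrow peaks (115 to 499). They covered 539 kb, 14.4% of all bases under peaks. The width distribution was continuous across the limit, with 8 peaks of exactly 500 bp and 6 of 499 bp, and the wide peaks were its tail. Just inside stood a peak in intron 5 of Creb5 (chr6:53562566-53563065, fold enrichment 11.2), which encodes an ATF/CREB family factor. Just outside, at 499 bp, stood a peak 19173 bp from the TSS of Luzp1 with a fold enrichment of 23.9 and a kEpiSC peak of 161 bp.

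**Figure D1:**
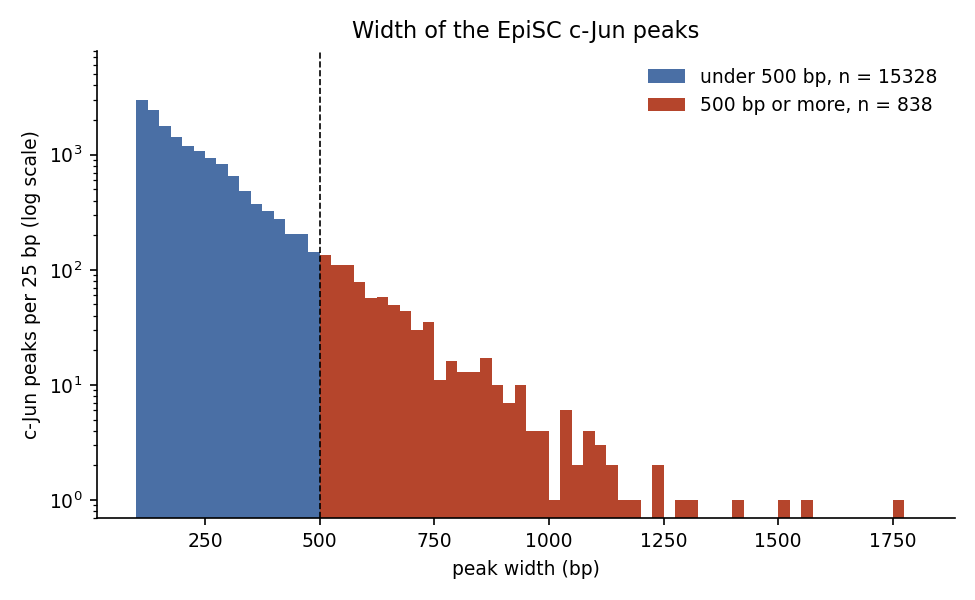
Number of EpiSC c-Jun peaks per 25 bp of width, on a log scale, with the limit of 500 bp as a dashed line. The counts fell smoothly through the limit, where 8 peaks measured 500 bp and 6 measured 499 bp, and the tail ended at 1770 bp.

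The width, the fold enrichment and the score of a peak come from the same ChIP and are given as a description. The fold enrichment at the summit had a median of 8.89 in wide peaks (2.08 to 28.2) and 6.16 in narrow ones. The reads at the summit, solved from the deposited fold and p-value, had medians of 15 (6 to 60) and 10. Of the wide peaks, 304 (36.3%) were in the highest-scoring of 10 equal groups of the list and 161 (19.2%) scored below its middle. Over all 16166 peaks, which share their libraries, the Spearman correlation of width with fold enrichment was 0.201. It was 0.139 within the wide peaks. Since the wide peaks had higher scores, the main comparisons below were repeated at equal score. For this the narrow peaks were weighted to the spread of the wide ones over the 10 score groups. A value described as at equal score comes from that step. Scores were not matched within a group, and the highest group held 304 of the wide peaks.

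The widest peak, of 1770 bp (chr17:25755824-25757593), lay between genes 2331 bp from the TSS of Msln, which encodes the cell surface protein mesothelin. It had a fold enrichment of 17.5 from 32 reads and 2 TGASTCA, and kEpiSCs had 2 peaks under it, the wider one of 736 bp. Next came peaks near Aebp2 (1562 bp, fold 16.1), a subunit of Polycomb repressive complex 2, and near Klf6 (1515 bp, fold 8.72), a zinc finger transcription factor. Others of the 15 widest were nearest to Arhgef3, Cd83, Ttc39b, Sfi1, Sowahb, Pou5f1, Hs6st1, Ergic1, Hagh, Dock5 and Jade2, at 1107 to 1322 bp. Width did not require a tall summit. The peak near Sowahb spanned 1193 bp with 9 reads at its summit, a fold of 5.29 and no TGASTCA.

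The highest-scoring wide peak was 10961 bp from the TSS of Mdm2, the ubiquitin ligase that targets p53, with 44 reads and a fold enrichment of 28.2 over 970 bp. The peak near Slco2a1, which encodes a prostaglandin transporter, followed with 48 reads and a fold of 25.9 over 596 bp. The peak near Lrrc74a had 42 reads and a fold of 22.8 over 1044 bp. The peak in intron 1 of the formin gene Fmnl2 had a fold of 23.4, and that near Socs1, the suppressor of cytokine signalling, had 23.9 with 4 TGASTCA. The others of the 10 were in introns of Ltbp1, Neo1, Msmo1 and Sbk3 or near Pla2g7, with folds of 23.2 to 23.9. All 10 overlapped a kEpiSC peak, and all but the Neo1 peak held TGASTCA.

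Wide peaks were at promoters less often than narrow ones. A promoter was taken from 1000 bp before to 100 bp after a TSS, and 9.84% of all EpiSC peaks had their centre in one. The centre of 44 wide peaks (5.25%, 95% Wilson interval 3.93 to 6.98) and of 1546 narrow peaks (10.1%) was in a promoter. The difference was −4.84 percentage points (95% Newcombe interval −6.24 to −3.05), and −1.97 (−3.55 to −0.38) at equal score. These intervals, like all below, cover the counting error of peaks in a single list and not the spread between cultures. No promoter peak was among the 28 peaks of 1000 bp or more, which allows a share of up to 12.1% by the Wilson interval.

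Between genes lay 390 wide peaks (46.5%) against 41.1% of the narrow ones, a difference of 5.46 percentage points (2.02 to 8.94). This difference did not hold at equal score, where it was 2.67 and its interval included 0, and it was 12.9 (4.38 to 21.2) for the peaks of 750 bp or more. In introns the shares were 44.0% of both. Only 15 wide peaks (1.79%) were centred in a coding exon, against 2.34% of narrow ones. Within 10 kb of the TSS of a protein-coding gene lay 230 wide peaks (27.4%) and 32.3% of the narrow ones, a difference of −4.88 (−7.89 to −1.68) that shrank to −0.729 at equal score, with an interval that included 0. Beyond 100 kb lay 12.4% and 13.5%.

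The 44 promoter peaks were richer in G and C and poorer in sites than the wide peaks as a whole. Their summit windows had a median GC content of 60.9% against 50.7% over all wide peaks and 50.2% over narrow ones. Taken over the whole peak, their median observed to expected CpG was 0.797, against 0.242 for all wide peaks. TGASTCA was present in 43.2% of them, against 79.1% of the wide peaks in introns and 77.4% of those between genes. Their widths ran from 500 to 812 bp and their fold enrichment from 3.60 to 14.1. Of the 44, 20 (45.5%) overlapped a kEpiSC peak.

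A TGASTCA within 100 bp of the summit was found at 501 wide peaks (59.8%, 56.4 to 63.1) and at 48.6% of the narrow ones, and at 49.2% of all EpiSC peaks. Windows of the same size 2 kb from the summit held one at 4.12% and 4.02%. The difference of 11.2 percentage points (7.71 to 14.5) reversed to −2.45 (−5.79 to 0.89) at equal score. In the highest score group 75.3% of the wide peaks and 75.5% of the narrow ones had a site there, in group 7 45.6% and 55.2%, and in the lowest, with 14 wide peaks, 42.9% and 25.8%. A difference by width was not detectable at equal score. Measured around the centre of the peak instead of the summit, the shares were 34.6% and 46.6%. The summit of a wide peak lay a median of 145 bp from its centre and that of a narrow one 26 bp.

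**Figure D2:**
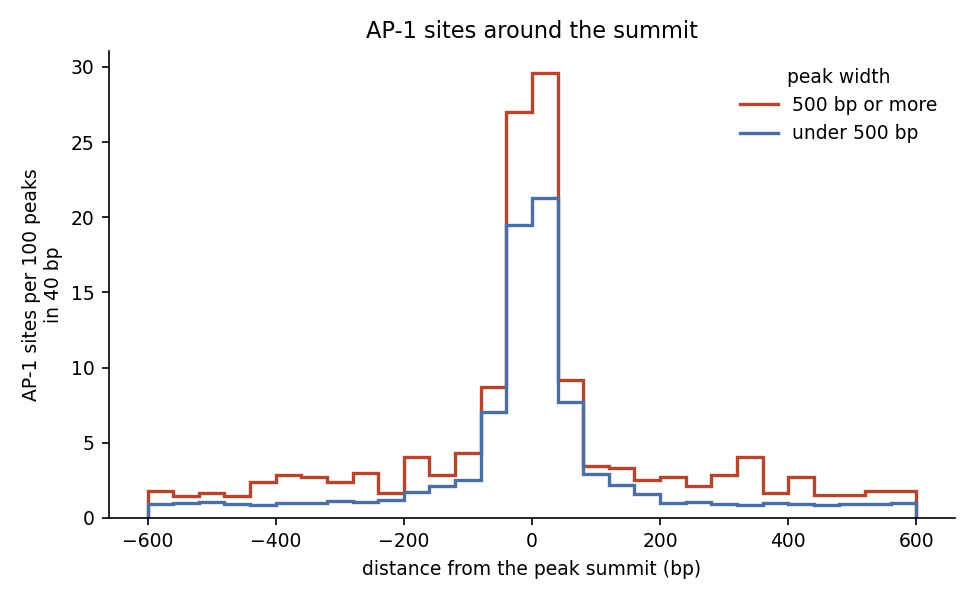
AP-1 sites (TGASTCA) per 100 peaks in bins of 40 bp, by distance from the summit, for wide and narrow EpiSC peaks. The bins next to the summit held 27.0 and 29.6 sites per 100 wide peaks and 19.5 and 21.3 per 100 narrow peaks, and the wide peaks stayed above the narrow ones out to 600 bp on either side.

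Away from the summit the wide peaks held more sites. More than 100 and up to 300 bp on either side they had 232 TGASTCA, 0.692 per kb, against 0.372 per kb in the same windows of narrow peaks, a ratio of 1.86 (exact 95% interval 1.62 to 2.13). The ratio was 2.06 at equal score and 1.73 without the peaks that held 10 or more sites. These windows are of equal length in both groups, but in narrow peaks they reach past the peak edge. In the parts of the peaks that lay over 100 bp from the summit, the density was 1.03 per kb in wide peaks and 1.02 in narrow ones. Sequence moved by 2 kb had 0.191 and 0.215 per kb.

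Over the whole peak, 635 wide peaks (75.8%) held at least 1 TGASTCA, 286 (34.1%) at least 2 and 87 (10.4%) at least 3. The corresponding shares of narrow peaks were 49.7%, 10.2% and 1.00%, and 11.4% of all EpiSC peaks held 2 or more. The difference for 2 or more was 24.0 percentage points (20.8 to 27.3), and 15.3 at equal score. For the peaks of 750 bp or more it was 36.2 (27.9 to 44.7), and with 1 mismatch allowed in the site it was 40.7. A wide peak gives more bases to search. Per kb of peak, the wide peaks had fewer sites than the narrow ones, 1.95 against 2.91, a ratio of 0.67 (0.628 to 0.714). This rate is divided by the width that chose the peaks, so a site at the summit counts for less in a wide peak. Within 100 bp of the summit the density was 3.97 per kb in wide peaks and 2.93 in narrow ones, not repeated at equal score. By number, 203 wide peaks had no site, 349 had 1, 199 had 2, 72 had 3 and 15 had 4 or more.

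Neighbouring sites within a wide peak were a median of 120 bp apart (quartiles 47 and 278, range 9 to 804), over the 385 pairs in the 284 peaks with 2 to 9 sites. Of these pairs 102 were under 50 bp apart and 84 over 300 bp. In 183 of the 284 peaks the summit lay between the first and the last site. In the 635 wide peaks with a site, the summit was a median of 26 bp from the nearest, and within 20 bp in 267.

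The most sites stood in a pair of tandem arrays. The peak in intron 5 of Atxn1 (chr13:45623812-45624386, 575 bp), whose nearest TSS is that of Gmpr, held 17, of which 16 read TGACTCA on the + strand, and 10 of the 16 spacings were 21 bp. Its fold enrichment was 2.85 from 12 reads, its local background 5.61 times the median, and 99.9% of the peaks had a higher score. The peak near Twsg1 (chr17:65961484-65962309, 826 bp), which encodes a BMP-binding protein, held 16, all TGAGTCA, with 26 bp the commonest spacing in 4 of 15 pairs. Its fold enrichment was 15.0 from 21 reads at a background of 0.742 times the median. kEpiSCs had peaks of 441 bp and 810 bp at these arrays. Another array, of 10 sites in intron 15 of Nell2, lay under a narrow peak of 441 bp. Reads that map to more than one place were removed by the authors, which can lower the count over repeated units.

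The next most sites were 5 each. The peak near Klf6 had a pair close to its summit, as the printed sequence shows, and the others up to 600 bp away. The peaks near Ahnak, a large scaffold protein, and Coq8b, a kinase-like protein of coenzyme Q synthesis, were 879 and 634 bp wide. Their sites lay from −45 to 593 bp and from −359 to 24 bp relative to the summit. Peaks near Hagh, Mrpl33 and Sgk1 held 4.

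**Figure D3:**
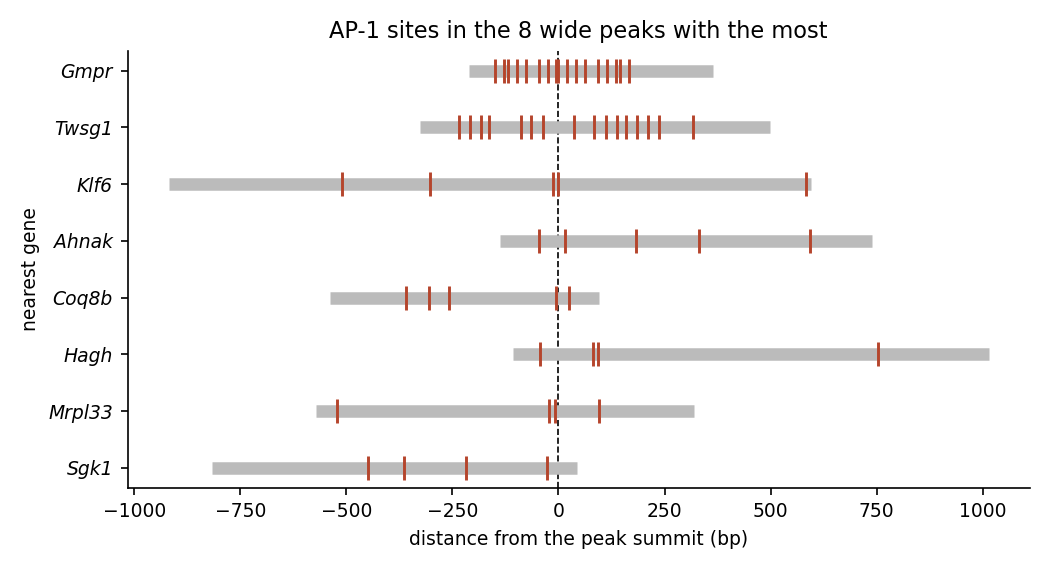
Position of each AP-1 site (red ticks) in the 8 wide peaks with the most, relative to the summit (dashed line), with the extent of each peak in grey and the nearest gene on the left. The arrays near Gmpr and Twsg1 held 17 and 16 sites, with the commonest spacing in 10 of 16 and 4 of 15 pairs, while the other 6 peaks had 4 or 5 scattered sites.

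TGACGTCA, the site preferred by dimers with ATF or CREB, lay within 100 bp of the summit at 2.74% of wide and 2.30% of narrow peaks, a difference of 0.442 percentage points whose interval included 0. Within the wide peaks it was more frequent where TGASTCA was absent, at 6.40% of those 203 peaks against 1.57% of the 635 with TGASTCA (with minus without −4.83 percentage points, −9.13 to −1.90). Wide peaks without TGASTCA were at promoters more often than those with it (12.3% against 2.99%, with minus without −9.32, −14.7 to −5.16) and overlapped kEpiSC peaks less often (47.3% against 77.5%, a difference of 30.2 percentage points, 22.5 to 37.6). These contrasts had the same direction in narrow peaks. Without and with TGASTCA, 3.84% and 0.749% of those had TGACGTCA by the summit, 16.5% and 3.63% were at promoters, and 15.4% and 36.7% overlapped kEpiSC peaks. Of other motifs, ACATTCC, bound by TEAD factors, had 0.293 matches per kb of wide peak and 0.120 in sequence moved by 2 kb, with 0.320 in narrow peaks. The GC box GGGCGG had 0.495 per kb of wide peak (0.437 to 0.558) against 0.782 in narrow peaks (0.752 to 0.813), and 0.219 in the moved sequence of wide peaks. The octamer ATGCAAAT, bound by Oct4, had 0.0871 per kb of wide peak, 0.0681 of narrow peak and 0.0519 in the moved sequence. Both strands were searched, and these rates were not repeated at equal score. The base of the summit was repeat-masked in 9.07% of wide and 9.81% of narrow peaks.

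Wide EpiSC peaks overlapped kEpiSC peaks far more often than narrow ones. At least 1 bp was shared by 588 wide peaks (70.2%, 67.0 to 73.2) and by 26% of the narrow peaks, against 28.3% of all EpiSC peaks. The difference was 44.2 percentage points (40.9 to 47.2), and 23.0 (20.1 to 25.9) at equal score. A wide peak offers more bases for an overlap, so the summit alone was also used. It lay inside a kEpiSC peak at 64.3% of wide and 24.0% of narrow peaks. Where at least 50% of the EpiSC peak had to be covered by kEpiSC peaks, the shares were 29.5% and 20.4%, a difference of 9.08 percentage points (6.02 to 12.3). Neither the summit measure nor the coverage measure was repeated at equal score. In the highest score group the overlap was 94.1% for wide and 77.0% for narrow peaks, and in the lowest 35.7% of 14 wide peaks and 9.11%.

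**Figure D4:**
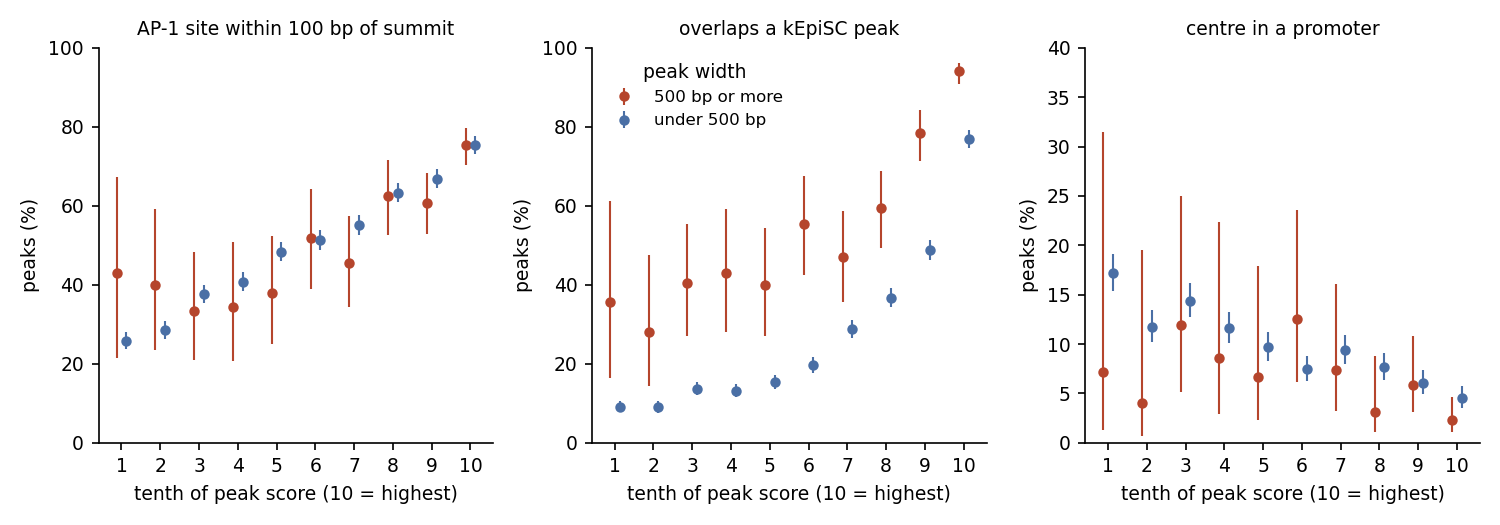
Share of wide and narrow EpiSC peaks with an AP-1 site (TGASTCA) within 100 bp of the summit, with an overlapping kEpiSC peak and with the centre in a promoter, in each of 10 score groups, with 95% Wilson intervals. The site share of wide peaks was the larger in some groups (42.9% against 25.8% in the lowest) and the smaller in others (45.6% against 55.2% in group 7), whereas the kEpiSC overlap of wide peaks was above that of narrow ones in each group.

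Among the wide peaks, the wider classes had the larger shares of overlap. It was 65.3% (60.7 to 69.6) of the 432 peaks under 600 bp, 70.0% (64.3 to 75.1) of the 273 from 600 to under 750 bp, 83.8% (75.6 to 89.6) of the 105 from 750 to under 1000 bp and 96.4% (82.3 to 99.4) of the 28 of 1000 bp or more. The first 2 classes did not differ beyond these intervals, nor did the last 2. The share with 2 or more TGASTCA was 29.9%, 34.4%, 46.7% and 50.0% in the same order. The median fold enrichment also differed over these classes, from 8.60 in the first to 13.6 in the last.

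Width itself was shared in part by the lines. The kEpiSC list held 189 peaks of at least 500 bp, and 182 of them overlapped an EpiSC peak. Of the 189, 49.2% overlapped a wide EpiSC peak, against 8.81% of the 5843 narrower kEpiSC peaks. Seen from the EpiSC list, the overlapping kEpiSC peak was itself 500 bp or more at 93 of 588 wide peaks (15.8%) and at 102 of 3985 narrow ones (2.56%), a difference of 13.3 percentage points (10.5 to 16.5). The median width of the overlapping kEpiSC peak was 290 bp and 180 bp. Over the 4573 overlapping EpiSC peaks the Spearman correlation of the widths was 0.356, each line being a single list.

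**Figure D5:**
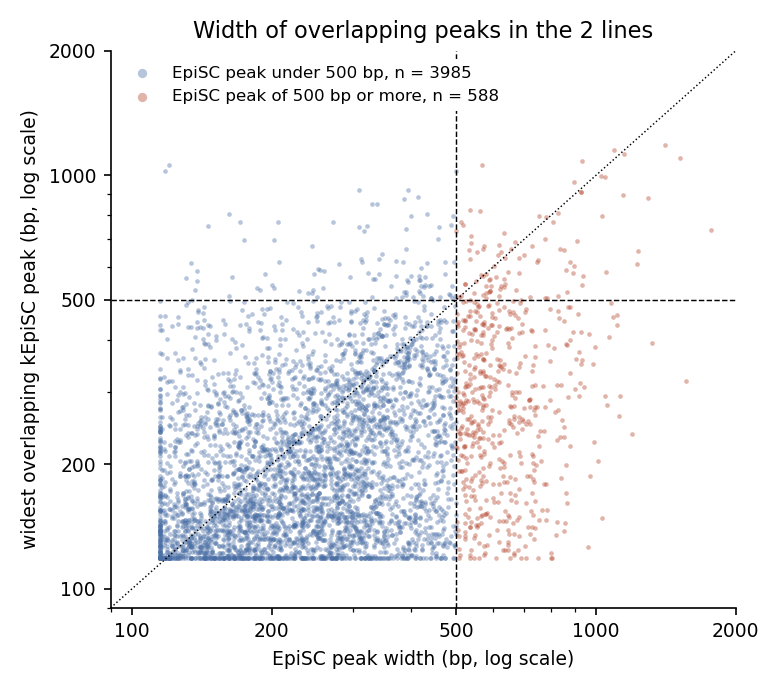
Width of each EpiSC peak against that of the widest kEpiSC peak it overlaps, both on log scales, for 588 wide and 3985 narrow EpiSC peaks, with equal widths as a dotted line and 500 bp as dashed lines. Most wide EpiSC peaks lie below the dotted line, with a median kEpiSC width of 290 bp.

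The widest kEpiSC peaks at wide EpiSC peaks included those near Ppef2 (1149 bp), upstream of Pou5f1 (1124 bp) and near Klf6 (1098 bp). Others of the 10 widest, of 910 to 1085 bp, were over Jun, in introns of Cubn and Dennd2c, and between genes 57771 bp from the nearest TSS, that of Erbin, 131044 bp from that of Phlda1 and 78824 bp from that of Atxn1. At the one nearest to Phlda1, a target of growth factor signalling, the kEpiSC peak was wider (1059 bp) than the EpiSC peak (569 bp). The 250 wide peaks without a kEpiSC peak had a median fold enrichment of 6.69, against 10.1 for those with one. The highest-scoring of them lay near Ebf2 (fold 17.1), near Gprc5a (15.7), in intron 4 of Zfpm2 (14.9), in intron 22 of Hps5 (13.2) and in intron 1 of Mtmr4 (12.7). Ebf2 encodes a transcription factor and Zfpm2 a cofactor of GATA factors, and the Zfpm2 peak was 1090 bp wide with no TGASTCA.

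Wide peaks had other peaks close by. Another EpiSC peak lay under 10 kb away at 62.3% of wide and 46.5% of narrow peaks, a difference of 15.8 percentage points (12.4 to 19.2), and 13.8 at equal score. Runs of at least 3 wide peaks with gaps under 10 kb were seen at 3 places. At Mreg, which encodes melanoregulin, 3 wide peaks spanned chr1:72196795-72206169 with folds of 8.21 to 10.3. Near Slco2a1, 3 wide peaks lay in chr9:102993848-102999632 with folds of 9.58 to 25.9.

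The last run, at Pou5f1 (Oct4, a core pluripotency factor) and its neighbour Tcf19, had 7 wide peaks among 13 in chr17:35498972-35514261. Their folds were 2.08 to 7.97, together they held 5 TGASTCA, and all 7 overlapped a kEpiSC peak. Relative to the median peak of the list, their local background was between 8.42 and 29.5 times as high. By the study's methods, its EpiSCs came from embryos of OG2 males, OG2 being the Oct4-GFP reporter. The part of this background, or of the reporter, in the calls was not tested. The one over the 3′ UTR of Tcf19, had 60 reads at its summit, the most of any wide peak, and a fold of 7.97. Of the 154 peaks of the list with a background of at least 5 times the median, 16 were wide. Besides these 7, 3 were at Sfi1 and others at or near Kcmf1, Myh9, Dlgap1, Inpp5a and Atxn1. Chromosome X had 1 wide peak of 96 (1.04%), in Hdac6, and the autosomes had 3.46% to 6.71% of their peaks wide.

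The wide peaks had 710 distinct nearest protein-coding genes, and 87 genes were nearest to at least 2. Mreg, Pou5f1 and Tgfbr2, a TGF-beta receptor, were nearest to 5 each, those of Pou5f1 having the high local background given above. Aebp2, Atxn1, Bhlhe40, Ergic1, Klf6, Sfi1 and Sgms1 were nearest to 4 each.

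In the gene lists, a gene counted as having a peak where the distance from any of its TSSs to a peak centre was under 10 kb. Of all 21000 protein-coding genes, 1.19% had a wide peak there and 21.3% a narrow one. Of 25 AP-1 family genes 5 had a wide peak, Jun, Fosb, Fosl2, Atf3 and Bach1, and 12 a narrow one. Of 30 AP-1 targets and immediate early genes 5 had one, Plaur, Ier2, Dusp1, Hbegf and Klf6, and 18 a narrow one. Of 30 cell junction and polarity genes 5 had one, among them Cldn4, Plekha7, Nectin1 and Pard6b, and 18 a narrow one. The shares with a wide peak, 20.0%, 16.7% and 16.7%, were above the 1.19% of all genes, but the lists were chosen with results of these data known and the shares are given without a test.

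Jun itself lay under a wide peak (chr4:95050268-95051293, 1026 bp, fold 15.9, 28 reads). Jun has a single exon, and the peak covered 1004 of the 1005 bp of its coding sequence, 97.9% of the peak being coding. There was no TGASTCA in it, its local background was 1.29 times the median, and the kEpiSC peak there was 996 bp wide with a fold of 7.42. None of the other 14 wide peaks in coding exons, among them those in Dnah8, Csf2ra, Med11 and Nos3, covered over 61.0% of a coding sequence. Among the other genes of the AP-1 family list, the peak 6950 bp from Fosb had a fold of 16.4 over 567 bp and 2 TGASTCA. The promoter peaks of Fosl2, Atf3 and Bach1 had folds of 5.69, 10.4 and 3.60.

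Among the target genes, the peak near Plaur, the urokinase receptor, was 633 bp wide in EpiSCs and 725 bp in kEpiSCs, with a fold of 12.4 in EpiSCs. Dusp1, a phosphatase of MAP kinases, had a promoter peak of 516 bp and another of 626 bp at 6144 bp from the TSS, with folds of 9.35 and 9.52. The peak near Hbegf, an EGF family ligand, was 1030 bp wide with a fold of 10.3. Of the junction genes, Cldn4, a claudin of tight junctions, had a promoter peak of 721 bp with a fold of 14.1 and 2 TGASTCA.

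Of 32 naive pluripotency genes 2 (6.25%) had a wide peak, beside the 1.19% of all genes, and 1 of 13 genes of both states (7.69%). The naive ones were Tbx3 (610 bp at the promoter, fold 5.34) and Il6st (509 bp, fold 9.90), the shared receptor subunit of LIF signalling, and 19 naive genes had a narrow peak. The gene of both states was Pou5f1, whose wide peaks had the high local background given above. Of 29 primed genes 0 had a wide peak and 6 a narrow one, and a list of this size is too short to set 0 apart from the share of all genes. None was found at Dppa5a, Zfp42, Esrrb, Klf4 or Nanog, whose peaks within 10 kb were at most 473, 115, 352, 228 and 338 bp wide, and Sox2 and Fgf5 had no peak there. A single gene had a wide peak in each of the lists of protein folding (Dnajb9), actin and focal adhesion (Itgav), Hippo (Wwtr1) and noncoding RNA hosts (Snhg3). The lists of apoptosis and p53 (31 genes), TGF-beta and FGF signalling (31) and ribosomal proteins (30) had none with a wide peak. They too are too short to set 0 apart from the share of all genes. A narrow peak was found at 17, 13 and 9 of their genes (54.8%, 41.9% and 30%), beside 21.3% of all genes.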

How the data were processed

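As the study's methods state, Bowtie2 aligned c-Jun ChIP and input reads to mm10, reads without a unique position were dropped, and MACS2 was run with its default settings. The submitters' processing notes name bcl2fastq, SAMtools and bedtools too, without versions. The deposited lists, 1 per line, may pool replicates or rest on the first. The authors' columns hold a score (the q-value on a whole-number scale), the fold ratio of ChIP to local background at the summit with 1 added to both, and the −log10 of p and q.

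Summit reads were solved from the deposited fold and p-value, within 0.01 in −log10 p for 100% of peaks. Library totals were not analysed here. Curated RefSeq genes of GRCm38.p6, the assembly of mm10, gave locations. Shares have 95% Wilson, their differences Newcombe and rate ratios exact intervals. At equal score the 95% intervals rest on a normal approximation instead, on the log scale for ratios. A difference was called where its interval left out 0, or 1 for a ratio. The intervals of differences and ratios, the weighting by score, the site counts and the solved reads were tested on simulated data. Other steps, such as locations and overlaps, were not. Peaks were named by size, score, sites, kEpiSC overlap and list membership. The members and the 13 gene lists (364 genes, 364 found) were chosen with earlier results of these data known. Alternatives covered the width limit, the score, the promoter, the distance, the motif window, the overlap and high background. Python 3.11.15, pandas 2.3.3, scipy 1.17.1, pysam 0.24.0 and samtools 1.23.1 were used. Some peaks that the naming rule covers are not reported here.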

Additional observations from a re-analysis of the deposited data

How the results depend on the processing

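No paired analysis was possible because the lists hold no value of a single library, so leaving out a library could not be tried either. Weighting the narrow peaks to the same 10 score groups moved the difference in the intergenic share to 2.67 percentage points, in the share within 10 kb of a TSS to −0.729, in TGASTCA within 100 bp of the summit to −2.45 and in repeat-masked summits to 0.781. Among the peaks scoring above the middle of the list the TSS and TGASTCA differences were −1.46 and 3.31. With a limit of 750 bp the TSS difference was −5.05, the repeat-masked one 0.765 and that of TGACGTCA −0.0708, and around the peak centre the TGASTCA difference was −11.9. Of these, the interval left out 0 at the peak centre alone. The cause of these changes was not tested, and the wide group was smaller at 750 bp. The differences in promoters, in 2 or more TGASTCA, in TGASTCA per kb and in kEpiSC overlap kept their direction and their call under every alternative run. Among them, TGASTCA per kb is divided by the width that chose the peaks in each run. The count of 2 or more TGASTCA covered the whole peak in each run, so wide peaks always had more bases to search. Sharing any base with a kEpiSC peak also becomes likelier with width, except in the runs on the summit and on coverage of the peak. The results on sites over 100 to 300 bp away, neighbours, repeats, TGACGTCA and wide kEpiSC peaks were added after seeing the data. The number of wide peaks was 1664 at a limit of 400 bp and 133 at 750 bp.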
